A study of Caenorhabditis elegans with 2 samples.

Results

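The vitellogenin genes vit-1, vit-2, vit-3, vit-4, vit-5 and vit-6 encode the yolk proteins of Caenorhabditis elegans. They were taken by name, as 6 of the 19973 protein-coding genes of the nuclear chromosomes, and all 6 were found in the annotation. Binding to them was read from chromatin immunoprecipitation followed by sequencing (ChIP-seq) of whole young adults, 63 hours old per the labels. The worms, strain RW12265, carry the insertion st12265 on chromosome III, which joins a TY1, EGFP and 3xFLAG tag to Y56A3A.18, a zinc finger gene annotated as znf-593. The labels give no sex. An anti-GFP antibody was used, and 2 biological replicates form the only group. With no second condition, genes were compared with other genes and replicate with replicate. The control named in the labels is not analysed here, and signal from untagged worms or input DNA cannot be set beside these values.

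Vitellogenins are large lipoproteins made in the intestine of the adult hermaphrodite and secreted into the body cavity. Growing oocytes take them up through RME-2, a receptor of the LDL receptor family, and the embryo and young larva use the yolk lipid and protein. In the adult hermaphrodite the vit genes are among the most strongly transcribed genes of the intestine, under GATA factors such as ELT-2 and under UNC-62 and CEH-60. vit-1 to vit-5 encode the larger yolk proteins, and the vit-6 product is cut into a pair of smaller ones. Their promoters are known for short shared elements, VPE1 and VPE2. The protein pulled down here is related to human ZNF593 and to yeast Bud20, which in yeast takes part in export of the large ribosomal subunit precursor from the nucleus.

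Positions are those of WBcel235 (ce11). All but vit-6 lie on X. vit-1 spans 7727889 to 7733168 and vit-2 spans 5101042 to 5106169, both on the plus strand, and vit-5 spans 3403471 to 3408603 on the plus strand. vit-3, at 3567355 to 3572549, and vit-4, at 3558769 to 3563965, lie on the minus strand as direct neighbours 3389 bp apart. vit-6 lies alone on IV at 8261157 to 8266459 on the plus strand. The genes are 5128 to 5303 bp long with 5 or 6 exons each. The nearest annotated protein-coding genes on either side were spp-14 and set-12 at vit-1, acn-1 and C42D8.9 at vit-2, rgs-7 and T27A10.5 outside the vit-4 and vit-3 pair, C04F6.9 and unc-78 at vit-5, and K07H8.7 and K07H8.8 at vit-6. C42D8.9 overlaps the end of vit-2 by 11 bp.

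The genes were aligned over their whole length, and identity was counted only at positions where neither gene of a pair had a gap. By that measure vit-3, vit-4 and vit-5 were 96.6% to 97.8% identical to each other, and vit-1 and vit-2 were 92.7% identical. Identity between those sets was 65.4% to 66.6%, and vit-6 was 48.6% to 49.6% identical to the rest. Stretches of identical sequence matter here, because a read from such a stretch fits more than 1 gene.

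The promoter sequences are shown because yolk gene control is known to act through them. The 250 bases upstream of vit-6 (chrIV:8260907-8261156, plus strand) and of vit-2 (chrX:5100792-5101041, plus strand) are given 5′ to 3′, from the RefSeq copy of the WBcel235 assembly. Capitals mark matches, on either strand, to VPE1 (TGTCAAT), VPE2 (CTGATAA) or the GATA core (TGATAA), which lies inside VPE2.
vit-6 promoter: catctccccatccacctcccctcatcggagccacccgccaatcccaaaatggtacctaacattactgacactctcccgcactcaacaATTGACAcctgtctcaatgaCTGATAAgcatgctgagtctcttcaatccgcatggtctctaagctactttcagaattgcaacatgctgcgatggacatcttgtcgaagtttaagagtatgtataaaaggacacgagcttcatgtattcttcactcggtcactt
vit-2 promoter: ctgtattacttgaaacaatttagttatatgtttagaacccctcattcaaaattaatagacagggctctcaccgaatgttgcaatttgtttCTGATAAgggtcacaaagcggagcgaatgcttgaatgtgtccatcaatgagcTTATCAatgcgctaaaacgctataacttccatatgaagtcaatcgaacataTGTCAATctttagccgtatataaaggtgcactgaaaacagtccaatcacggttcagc

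The 250 bp upstream of all 6 vit genes held VPE1, against 4.81% of 19973 promoters of that length. VPE2 was present upstream of 5 of the 6, all but vit-3, against 7.20% of promoters. VPE1 and VPE2 are known as shared elements of these same promoters, so these counts are not an independent result. The GATA core was present upstream of all 6, against 26.8%. A run of bases taken from earlier results of these data was searched as 3 shifted words. AGACGC was upstream of 0 of the 6 vit genes, against 6.69% of promoters. For GACGCA the count was also 0 of the 6, against 7.49%, and for ACGCAG it was 0, against 7.23%. All motifs were searched on both strands.

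Peaks were read from the authors' lists, in which a signal value gives the strength of enrichment of each peak on a scale that the sources used here do not state. The main list, called conservative by the authors, holds 1687 peaks called on both replicates together and kept where the irreproducible discovery rate (IDR), a measure of how well a peak's rank is shared by a pair of callings, was at most 0.01. A second thresholded list of both replicates holds 1826 peaks. Each replicate also has a thresholded list of its own, with 817 peaks in replicate 1 and 754 in replicate 2, and a ranked list of 51496 and 52336 peaks, most of them not past the threshold. Read counts were not used, so the depth is unknown here.

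At their starts, 2 of the 6 vit genes had a conservative summit in a window from 1000 bp before to 500 bp after the gene's first base. Over all protein-coding genes the share was 3.89%, or 777 of 19973. vit-2 had its summit 239 bp inside the gene, in exon 1, with a pooled signal of 57.8. The replicate values at that peak were 29.8 in replicate 1 and 33.5 in replicate 2. vit-6 had its summit 329 bp inside the gene, in exon 2, with a pooled signal of 81.5. The replicate values there were 52.8 in replicate 1 and 40.8 in replicate 2, both above those of vit-2.

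Neither summit was upstream of the gene. Over all genes with a conservative start summit, 622 of 777 had one upstream of the 5′ end and 189 had one at or downstream of it. The window reaches 1000 bp upstream but only 500 bp downstream, so it leaves more room for upstream summits. Within a narrower window, from 500 bp before to 200 bp after the first base, 0 of the 6 vit genes had a summit, against 2.67% of all genes. The median start signal of the 2 vit genes was 69.6, against 75.7 over the 777 genes. The start summit of vit-6 also fell in the window of K07H8.16, a noncoding RNA gene that lies upstream on the other strand.

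A start peak was also found at vit-5, but it did not enter the conservative list. Its pooled signal was 88.5, which ranked 541st of the 94653 ranked peaks and exceeded both start peaks above. The IDR between the replicates had paired it with entries of 8.29 and 43.0. Replicate 1's own thresholded list held a different peak of 41.7 with its summit 119 bp inside the gene, and replicate 2's held one of 43.0 with its summit 163 bp inside. vit-5 therefore had a start peak past the threshold in each replicate alone and in the other list of both replicates, all in exon 1. In each of these 3 lists the vit genes with a start summit were vit-5 and vit-6, against 2.00% of all genes in replicate 1's own list, 1.85% in replicate 2's and 4.01% in the other list of both replicates.

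Below the threshold, every vit gene had a summit in its start window in both replicates' ranked lists, as did 38.4% of all genes. The strongest start summits of vit-5 were 41.7 and 43.0, in replicates 1 and 2, and those of vit-6 were 52.8 and 40.8. vit-2 had 29.8 and 33.5, all 3 genes with their strongest summit inside the gene in both replicates. vit-1 had 32.2 in replicate 1, 224 bp inside the gene, but 24.0 in replicate 2, 87 bp upstream. At vit-4 the summits were 174 bp and 125 bp upstream, with 36.7 in replicate 1 and 15.2 in replicate 2, and at vit-3 they were 91 bp and 41 bp upstream, with 26.2 and 10.01. The replicates thus gave like values at vit-2, vit-5 and vit-6 and differed by more than 2 times at vit-3 and vit-4. The vit medians were 34.5 in replicate 1 and 28.7 in replicate 2, against 17.6 and 14.8 over all genes with a summit in the window. With the top 20% of each replicate's list by signal, 4 of the 6 vit genes kept a summit in both replicates, against 8.77% of all genes.

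Upstream summits at vit genes did not pass the threshold in both replicates. The single one in a thresholded list lay 214 bp upstream of vit-6 in replicate 2's own list, with a signal of 30.4, in the promoter sequence printed above. It also fell in the windows of K07H8.7 and K07H8.16. The nearest replicate 1 entry, 157 bp upstream, had a signal of 17.6 and did not pass the threshold. With both replicates together, a summit 127 bp upstream of vit-4 had a pooled signal of 59.9, above the 57.8 of the vit-2 start peak. It ranked 1582nd of 94653 peaks but did not pass the IDR threshold.

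The peaks past the threshold lay mainly inside the genes. A conservative peak overlapped the gene body of 4 of the 6 vit genes, namely vit-2, vit-4, vit-5 and vit-6, against 4.85% of all protein-coding genes and 6.62% of the 6690 genes within 0.5 to 2 times the median vit length. There were 14 such peaks, which is 0.830% of the conservative list, in genes that make up 0.0312% of the nuclear genome. That is 0.448 peaks per kb of vit gene, against 0.0168 per kb of nuclear genome. Of the 14 summits, 11 lay in a coding exon and 0 lay upstream of the gene. Exons cover most of each vit gene, and the 14 were taken for touching a gene. Neither count therefore shows a preference for these places. The pooled signal of the 14 ranged from 4.96 to 133.8 with a median of 67.0, against a median of 71.9 over the list, and 7 of the 14 reached the list median.

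**Figure D1:**
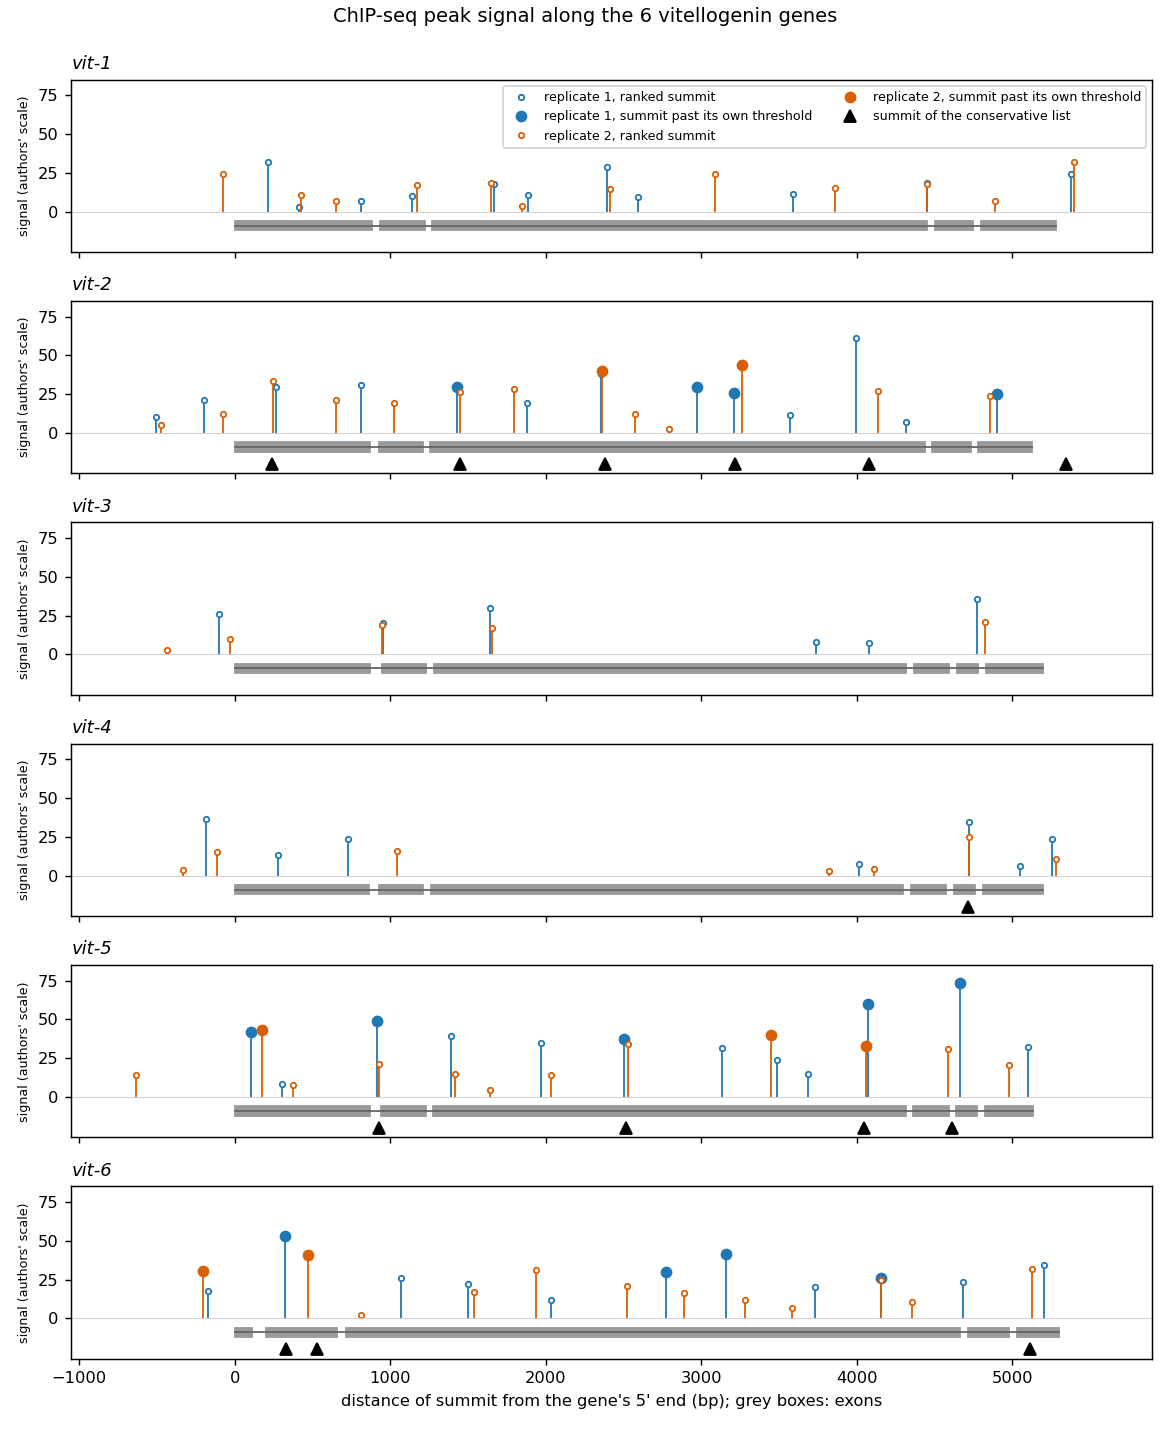
Signal of peak summits (vertical axis, authors' scale) against distance from each gene's 5′ end (horizontal axis, bp) for the 6 vit genes. Open circles are ranked summits of replicate 1 (blue) and replicate 2 (orange), filled circles those past the replicate's own threshold, black triangles summits of the conservative list and grey boxes exons; peaks that neither touch the gene nor have a summit in its start window are not drawn, and circles are moved slightly apart sideways so that both replicates show. vit-2, vit-5 and vit-6 carry filled circles along the gene, and the circles of vit-1, vit-3 and vit-4 are all open, with a conservative summit in vit-4.

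The map of summits along the 6 genes shows where these peaks lie. vit-2 carried the most, with 6 conservative peaks along its length. Those at 239, 1448, 2383, 3215 and 4076 bp from the start lay in exons 1 and 3 and had pooled signals of 57.8, 57.97, 93.3, 61.9 and 55.7. The sixth touched the last bases of vit-2, but its summit lay past the gene's end and inside C42D8.9. It was the strongest of the 14, with a pooled signal of 133.8 and rank 125 of 1687, and its replicate values were far apart, 32.3 in replicate 1 and 86.0 in replicate 2.

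vit-5 carried 4 conservative peaks. Their summits lay at 930 bp (intron), 2519 bp (exon 3), 4045 bp (exon 3) and 4613 bp (intron), with pooled signals of 74.4, 75.9, 72.1 and 81.2. Replicate 1 had 49.2, 37.6, 59.8 and 73.6 at these peaks and replicate 2 had 21.4, 34.4, 32.9 and 31.2. Replicate 1 was higher at all 4, by more than 2 times at 930 and 4613 bp.

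vit-6 carried 3, at 329 and 531 bp in exon 2 and at 5115 bp in exon 5. The peak at 531 bp had a pooled signal of 4.96, and the list paired it with the same replicate entries as the peak at 329 bp, so the 14 peaks rest on 13 distinct pairs. The peak at 5115 bp had a pooled signal of 47.5, with 34.4 in replicate 1 and 31.6 in replicate 2. vit-4 carried 1 peak, at 4713 bp in exon 5, with a pooled signal of 58.7, a replicate 1 value of 34.7 and a replicate 2 value of 24.7. vit-1 and vit-3 carried no conservative peak, but the other list of both replicates held peaks of 50.4 and 20.03 in exon 3 of vit-1 and of 52.8 in an intron of vit-3. In that list all 6 vit genes had a peak inside, 19 peaks in all, against 5.23% of all genes and 7.23% of those of like length. The 19 include overlapping neighbours in vit-1 and vit-6 and the vit-2 peak whose summit lies past the gene's end.

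**Figure D2:**
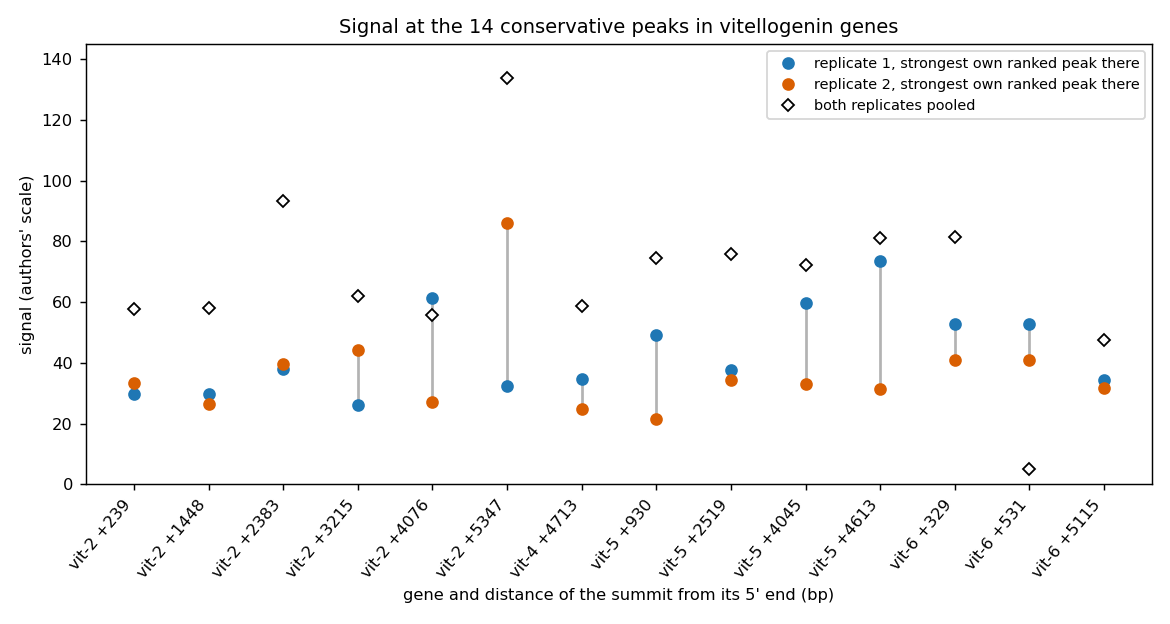
Signal (vertical axis, authors' scale) at each of the 14 conservative peaks in vit genes (horizontal axis, gene and summit distance in bp). Filled circles are replicate 1 (blue) and replicate 2 (orange), joined by a grey line, and diamonds the pooled signal; the replicates lie close at vit-2 +2383 (37.8 and 39.7) and far apart at vit-2 +5347 (32.3 and 86.0).

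The plot of replicate signal at the 14 peaks shows how far the replicates shared them. At vit-2 +2383 the replicate values averaged 38.8 ± 1.33 (SD, n = 2), and at vit-5 +2519 they averaged 36.01 ± 2.21. At vit-2 +4076 they averaged 44.3 ± 24.3 and at vit-5 +4613 52.4 ± 29.98. The means of the 14 ran from 28.1 to 59.1. The values at vit-6 +329 (52.8 and 40.8) lay above those at vit-2 +1448 (29.7 and 26.5) in both replicates, whereas peaks with a wide spread cannot be ordered among themselves. The replicate summits lay 1 to 235 bp apart, with a median of 42 bp. In the replicates' own thresholded lists, vit-2, vit-5 and vit-6 each had a peak inside in both replicates, against 1.03% of all genes and 1.57% of genes of like length. Replicate 1's own list held 13 peaks inside vit genes and replicate 2's held 6, and the vit genes with such a peak were those 3 in each. Only some of these peaks overlapped between the replicates. In vit-2 the overlapping peaks had summits at 3224 bp in replicate 1 and 3251 bp in replicate 2. In vit-5 they were at 119 and 163 bp and at 4084 and 4045 bp. In vit-6 they were at 339 and 461 bp. Over all genes the share with a peak inside was 2.02% in replicate 1 and 2.13% in replicate 2, and over genes of like length 2.81% and 3.21%.

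Few genes held as many conservative peaks as vit-2, vit-5 and vit-6. Of all protein-coding genes 29 (0.145%) held 3 or more conservative peaks, and 3 of them were vit genes. vit-6 reached 3 only with the overlapping peaks at 329 and 531 bp, which share their replicate entries, and the 6 of vit-2 include the peak whose summit lies past the gene's end. Among the 10 genes (0.0501%) with 4 or more, 2 were vit-2 and vit-5. vit-2 was one of 3 genes (0.0150%) with 6 or more. The others were tos-1 with 8 and W06H8.6 with 7, which are named because the count is so small and after their values were seen. Over genes of like length the shares were 0.284% with 3 or more, 0.120% with 4 or more and 0.0448% with 6 or more.

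Adding up the signal of all ranked peaks that touch a gene, per kb of gene, gives a level for all 6 genes. vit-5 had 87.2 per kb in replicate 1 and 51.6 in replicate 2, 1st and 10th of the 6690 genes of like length. vit-2 had 60.1 and 56.7 (8th and 6th), and vit-6 had 54.2 and 40.6 (15th and 40th). vit-1 came next with 32.9 and 36.3 (182nd and 72nd), although it had no conservative peak. vit-3 had 24.6 and 12.9 (485th and 1542nd) and vit-4 had 21.2 and 14.2 (757th and 1266th). The vit median was 43.5 per kb in replicate 1 and 38.4 in replicate 2, against 8.53 and 7.29 over the 6690 genes, whose 99th percentiles were 41.97 and 36.7.

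**Figure D3:**
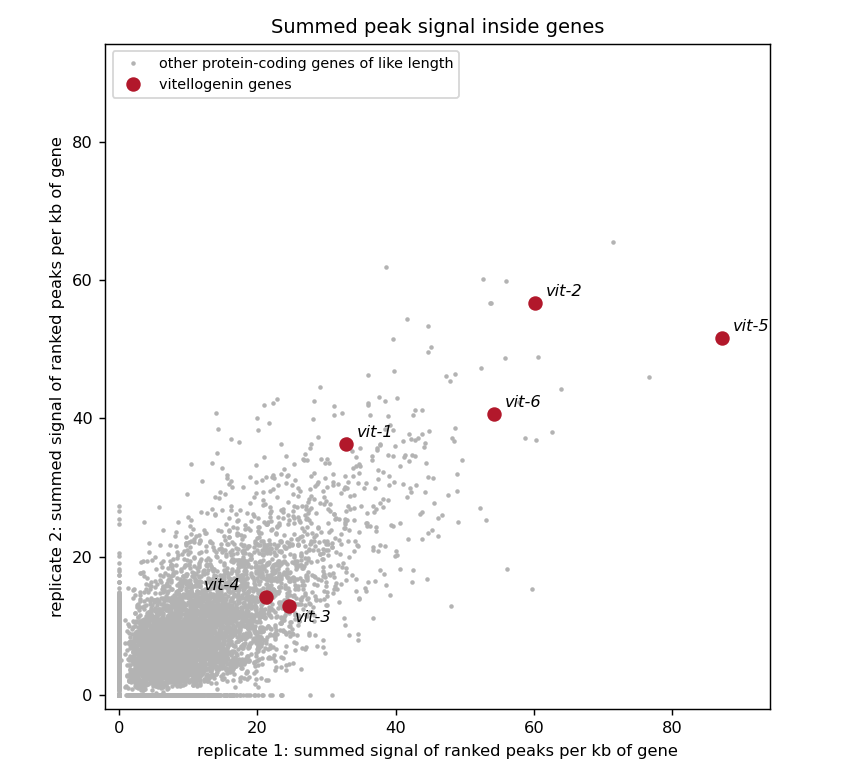
Summed signal of ranked peaks per kb of gene in replicate 1 (horizontal axis) and replicate 2 (vertical axis), on the authors' signal scale, for the 6 vit genes (red) and the other protein-coding genes within 0.5 to 2 times the vit median length (grey). vit-5, vit-2 and vit-6 lie above 40 in both replicates, at the far edge of the grey points, and vit-3 and vit-4 lie at 12.9 to 24.6.

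In the plot of summed signal the 6 genes fall in the order vit-5, vit-2, vit-6, vit-1, vit-3, vit-4 by the mean of the replicates. The ranges of vit-5 and vit-2 overlapped, as did those of vit-3 and vit-4, so neither pair can be ordered. The ranges of the other neighbours in that order did not overlap. In all, 56 ranked peaks touched vit genes in each replicate. The genes at the low end, vit-3 and vit-4, are also those with the most repeated sequence.

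Repeated sequence was measured as the share of a gene's 50-base words that occur elsewhere in the genome on either strand. It was 78.6% in vit-4, 74.1% in vit-3, 49.1% in vit-5, 13.1% in vit-2, 12.8% in vit-1 and 0% in vit-6, and 37.8% over the 6 genes together. In the start windows it was 28.3% in vit-4, 27.7% in vit-3, 2.62% in vit-5 and 0% in the other 3. The treatment of reads with several matches is not stated by any source used here. vit-2, vit-5 and vit-6, with 13.1%, 49.1% and 0% repeated, had peaks inside in both replicates' own thresholded lists. vit-1, vit-3 and vit-4, with 12.8%, 74.1% and 78.6%, had none in either. The part of repeated sequence in the low values of vit-3 and vit-4 was not tested.

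**Figure D4:**
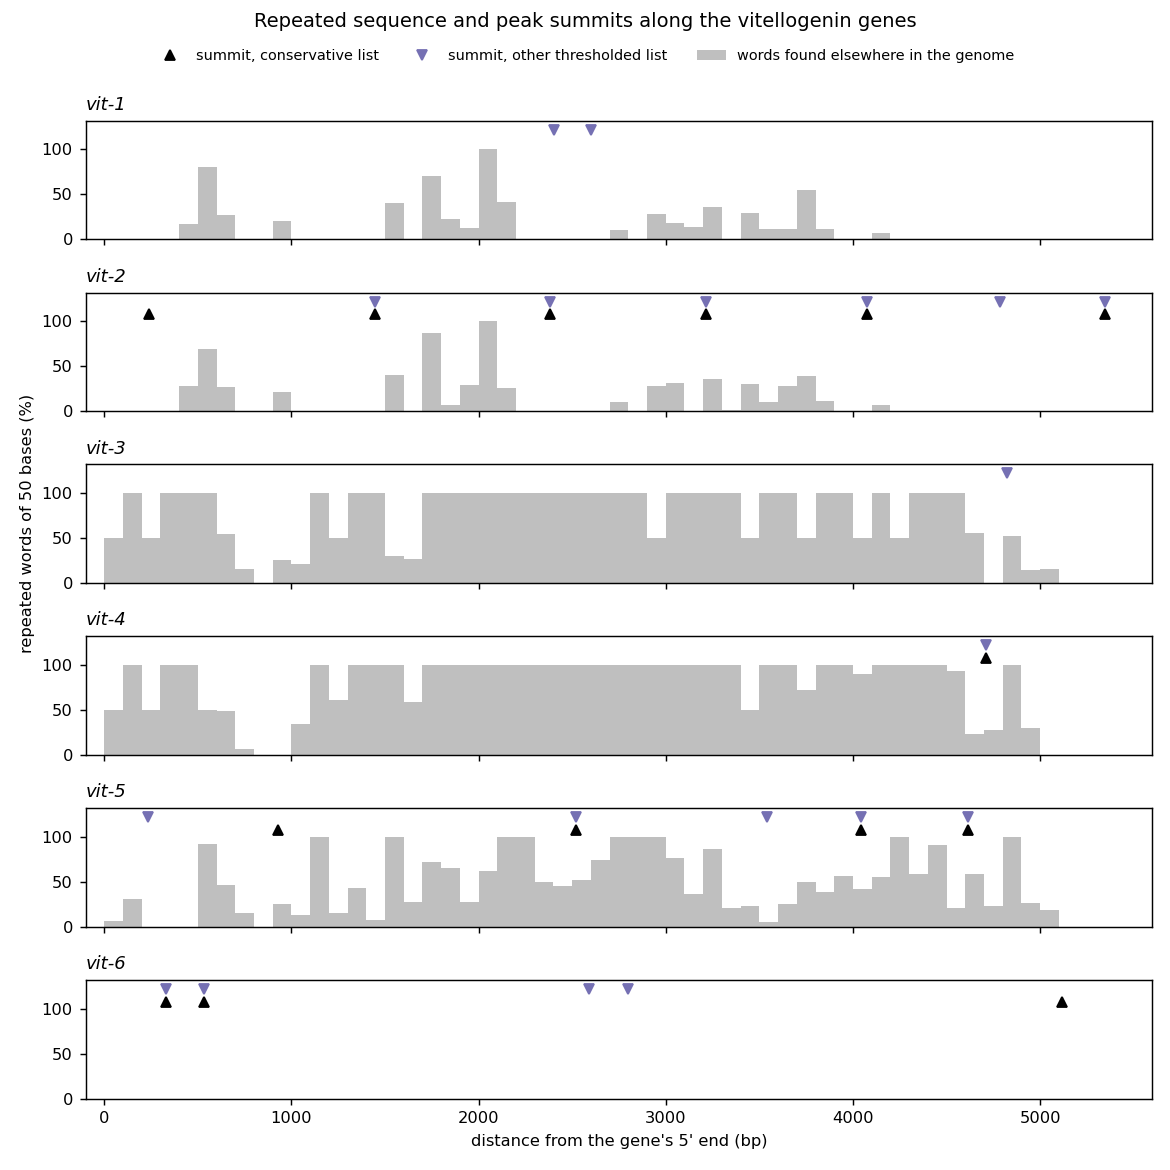
Share of 50-base words found elsewhere in the genome (bars, %, in bins of 100 bp) along each vit gene (horizontal axis, bp from the 5′ end). Black triangles are conservative summits and purple triangles summits of the other thresholded list of both replicates; vit-3 and vit-4 are repeated over most of their length, and their summits lie near their 3′ ends.

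The plot of repeated sequence also shows that the vit-3 and vit-4 peaks lay near the 3′ end. Of the words under the vit-4 peak 37.8% were repeated, and under the vit-3 peak of the other list 23.9%. Under the 4 conservative peaks of vit-5 the share was 13.1% to 51.4%, under those of vit-2 0% to 38.6%, and under those of vit-6 0%.

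The alignment allowed the summits of different vit genes to be set beside each other. With summits of the 4 thresholded lists joined where they lay within 100 alignment columns, they formed 12 places, of which 7 held summits of 2 or more genes and 3 those of 3 or more. The place near the start, in exon 1 of vit-2 and vit-5 and exon 2 of vit-6, held summits of those 3 genes. A place in the middle of the large exon 3 held summits of vit-1, vit-2, vit-5 and vit-6, and one further along that exon held summits of vit-2, vit-5 and vit-6. The other 5 places held summits of 1 gene. Summits chained into 1 place can lie further apart than 100 columns, and no rate for unrelated positions stands beside these counts.

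The sequence at these places is shown to let the genes be compared base by base. The first set is the 61 bases around the vit-2 summit at 239 bp (chrX:5101251-5101311, plus strand), with the aligned bases of vit-1 (chrX:7728109-7728169, plus), vit-3 (chrX:3572272-3572332, minus), vit-4 (chrX:3563697-3563757, minus) and vit-5 (chrX:3403689-3403749, plus). All are read on the strand of the gene, in coding exon 1. Capitals mark bases that differ from vit-2, of which there are 6 in vit-1, 25 in vit-3 and vit-4 and 26 in vit-5.
vit-2 at 239 bp: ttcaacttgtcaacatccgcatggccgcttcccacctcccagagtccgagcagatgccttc
vit-1 aligned: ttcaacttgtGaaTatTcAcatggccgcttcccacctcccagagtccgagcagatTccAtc
vit-3 aligned: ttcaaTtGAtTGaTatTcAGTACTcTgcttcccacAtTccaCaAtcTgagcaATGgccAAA
vit-4 aligned: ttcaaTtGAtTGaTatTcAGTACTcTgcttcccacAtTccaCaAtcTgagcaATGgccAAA
vit-5 aligned: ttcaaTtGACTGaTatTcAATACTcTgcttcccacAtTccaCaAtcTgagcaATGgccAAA

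Near this stretch vit-5 had start peaks in both replicates' own thresholded lists, whereas vit-1 and vit-2 had none in either. vit-2 had its start peak in the conservative list, and vit-1 had none in any thresholded list. The bases around the vit-6 summit at 329 bp (chrIV:8261456-8261516, plus strand) are given in lower case throughout, since vit-6 is too distant for single differences to be informative.
vit-6 at 329 bp: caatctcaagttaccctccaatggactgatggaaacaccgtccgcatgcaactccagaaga

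The second set is the vit-2 peak at 2383 bp (chrX:5103395-5103455, plus), where the replicates lay closest in relative terms among the 14, with vit-1 (chrX:7730258-7730318, plus) and vit-5 (chrX:3405843-3405903, plus). Capitals again mark differences from vit-2, 4 in vit-1 and 31 in vit-5. The vit-1 summit of the other list at 2402 bp lies in the vit-1 stretch, and the vit-5 summit at 2519 bp lies downstream of the vit-5 stretch.
vit-2 at 2383 bp: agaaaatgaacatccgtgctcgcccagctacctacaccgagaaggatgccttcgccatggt
vit-1 aligned: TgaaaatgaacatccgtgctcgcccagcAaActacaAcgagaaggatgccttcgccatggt
vit-5 aligned: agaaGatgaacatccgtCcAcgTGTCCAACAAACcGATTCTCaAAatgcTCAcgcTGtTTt

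The same letters were searched at the peaks. Of the 101-bp windows centred on the 14 conservative summits, 1 held VPE1, at vit-5 +2519, against 1.24% of all 1687 windows. VPE2 and the GATA core were in 0 of the 14, against 1.60% and 7.47%. AGACGC was in 0 of the 14, against 10.4%, while GACGCA was in 0, against 9.13%, and ACGCAG likewise in 0, against 9.90%. With 14 windows, counts of 0 and 1 do not set the vit peaks apart from the list. The vit summit windows had a median GC content of 48.5%, against 45.5% over the list, and the vit genes themselves were 45.0% to 48.5% GC.

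Genes that act on yolk in other steps were read in the same way. Of 12 regulators of yolk genes, 1 had a conservative start summit (8.33%, against 3.89% of all genes), the transcription factor gene mxl-3, at 203 bp inside the gene with a pooled signal of 85.1. Inside the gene, 5 of the 12 had a peak, against 4.85% of all genes. These were mxl-3, ceh-60 (104.3, a peak that also lies in its neighbour ets-4), lin-29 (105.1), hlh-30 (67.5) and skn-1 (65.7), of which ceh-60 encodes a homeodomain partner of UNC-62. The genes of that list are long in part, with hlh-30 at 20159 bp.

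Of 14 genes for secretion and uptake of yolk, 2 had a start summit (14.3%, against 3.89% of all genes). These were the GTPase genes rab-5, of early endosomes (74.3, at 235 bp), and rab-11.1, of recycling endosomes (67.1, at 305 bp). Both of these summits lay inside the gene, but rab-5 had 2 start summits and its other one lay upstream. rab-5 and rab-11.1 each held 3 conservative peaks, but neither replicate's own thresholded list held a peak inside them. rme-1 and chc-1, the clathrin heavy chain gene, held 1 conservative peak each. In all, 4 of the 14 genes (28.6%) had a conservative peak inside, against 4.85% of all genes. The yolk receptor gene rme-2 and dsc-4, which encodes a microsomal triglyceride transfer protein, had neither a start summit nor a peak inside. In the start window of dsc-4 the strongest ranked summits were 14.9 in replicate 1 and 13.9 in replicate 2, and the medians over all genes with a summit were 17.6 and 14.8.

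Of 23 genes strongly expressed in the intestine, 2 had a start summit (8.70%, against 3.89% of all genes), the peptide transporter gene pept-1 (84.2, 92 bp upstream) and the cathepsin L gene cpl-1 (39.1, 95 bp inside). cpl-1 had 2 start summits, and its other one lay upstream. A conservative peak lay inside 4 of the 6 vit genes, against 4 of these 23 (17.4%) and 4.85% of all genes. Over genes of like length the share was 6.62%, and the 23 were not matched to the vit genes for length. The most in 1 gene were 6 in vit-2, against 3 in cpl-1, but cpl-1 is shorter, at 2775 bp against 5128 bp. Per kb of gene the values were close, 1.17 peaks in vit-2 and 1.081 in cpl-1. The 6 of vit-2 include the peak whose summit lies past the gene's end. These counts therefore do not set vit-2 apart from cpl-1. Ribosomal protein genes had a start summit in 14 of 47 large subunit genes (29.8%) and 11 of 31 small subunit genes (35.5%), against 3.89% of all genes. The summit was upstream in 12 of those 14 and 9 of those 11, unlike at vit-2 and vit-6, in a window that is longer upstream than downstream. No ribosomal protein gene held more than 2 peaks, but these genes are shorter. rpl-7A and rps-4, with 2 peaks each, are 1448 and 987 bp long, against 5128 bp for vit-2, so the counts cannot be compared directly.

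The start peaks most like those of vit-2 and vit-6 were sought over 3 values, the pooled signal and the signal of each replicate, on the log2 scale. Nearest to vit-2 were cgh-1, an RNA helicase gene of the germline (57.1, with 28.9 and 33.1), rsbp-1 (58.6, with 31.4 and 33.0) and Y48B6A.1 (56.7, with 28.1 and 33.97). Nearest to vit-6 were T27E9.2, abcf-2 and ant-1.1, a mitochondrial ADP/ATP carrier gene, which share 1 peak of 84.5 with 50.98 in replicate 1 and 39.9 in replicate 2. All 6 had the summit upstream of the start, as did most genes with a conservative start summit, 622 of 777.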

How the data were processed

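The signal values of the peaks were deposited by the authors, on a scale that no source used here states. The authors also deposited a scaled IDR score and the −log10 of the IDR for each peak, and −log10 IDR of at least 2 counted as past the threshold. The assembly is ce11, per the file headers. Lists exist for each replicate and for the pair, and no source used here names the aligner or caller. Per the labels, worms were synchronised by bleaching and starvation, and DNA fragments were 200 to 800 bp.

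Genes came from Ensembl release 115 (WBcel235). No peak ran past the end of its chromosome in this assembly. Coordinates are 1-based. A peak counted as inside a gene from 1 bp of overlap. Replicate values at a conservative peak are the entries that the authors paired with it. Of the 1687 peaks, the first entry was found in replicate 1's ranked list for 1674 and the second in replicate 2's for 1672, and 0 the other way round. Start windows and sums used each replicate's ranked list. Sequences came from the RefSeq copy of the assembly, and genes were aligned with MAFFT 7.526. The scripts used Python 3.11.15, NumPy 2.4.6 and SciPy 1.17.1, and counting was checked on simulated peaks. No test was made, since 1 group allows none, and shares over all genes stand beside the counts of genes. The genes named were the vit genes, their neighbours, genes of the lists with a start summit, rme-2 and dsc-4, and the 3 genes most like vit-2 and vit-6 each. List genes with a peak inside but no start summit, and genes named for 4 or more peaks inside, were added after their values were seen. The members and lists were chosen with earlier results of these data known.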

Additional observations from a re-analysis of the deposited data

How the results depend on the processing

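The 2 vit genes with a conservative start summit became 1 (vit-6) with peaks at or above the median signal and 0 in the window from 500 bp before to 200 bp after the first base. With the list of either replicate alone, the other thresholded list, the window from 2000 bp upstream, any base of a peak in the window, the nearest start or the start of any transcript there were 2, which were vit-5 and vit-6 in the first 3 of these lists. The 777 genes with a start summit became 439 with peaks at or above the median signal and 369 to 400 with 1 replicate left out. The count of peaks inside vit genes was examined under alternatives chosen after seeing the data. The 14 became 7 at or above the median signal and 6 to 13 with 1 replicate left out, the 6 being replicate 2's own list. The number of vit genes with a peak inside ranged from 3 to 6, against 4. The share of repeated words, 37.8% at 50 bases, was 42.8% at 36 bases and 27.0% at 100 bases. No paired analysis was possible because the samples form only 1 group. Depth is unknown, no control was analysed here, whole worms do not show which cells gave the signal, and the number of replicates limits every value.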

Other observations

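The genes with 4 or more conservative peaks inside, named here after their values were seen, were tos-1 (8), W06H8.6 (7), vit-2 (6), mnk-1 (5), and with 4 each W09D10.4, dnj-20, hsp-1, hsp-3, icl-1 and vit-5. hsp-1 and hsp-3 encode Hsp70 chaperones, of the cytosol and of the endoplasmic reticulum, and icl-1 the glyoxylate cycle enzyme. Per kb of gene, vit-2 had 1.17 peaks and vit-5 0.779, against 1.69 in hsp-1, 1.497 in tos-1, 1.29 in hsp-3, 1.21 in W06H8.6, 1.09 in icl-1, 0.858 in W09D10.4, 0.596 in dnj-20 and 0.396 in mnk-1. In the replicates' own thresholded lists, vit-5 held 5 peaks in replicate 1 and 3 in replicate 2, vit-2 held 4 and 2, tos-1 held 4 and 5, W06H8.6 held 3 and 4, mnk-1 held 6 and 1, and each of the other 5 held 0 to 2 in either replicate.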
